A study of Mus musculus with 7 samples.

Results

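Of the 39704 regions in a table of HNF4a binding in mouse liver, 653 (1.64%) lay at the end of a gene. They were taken as the regions whose deposited annotation names a transcription termination site (TTS) and whose assigned gene is not a microRNA. The table held 720 gene-end regions in all, and 67 assigned to microRNAs were left out. For each region the table gives the gene at whose end it lies, and separately the gene with the nearest transcription start site (TSS), called the assigned gene here. Regions are named below by the assigned gene alone where both genes agree, and as "the region at the end of A assigned to B" where they differ.

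Chromatin immunoprecipitation with sequencing (ChIP-seq) of liver was done with antibody ab41898 in 3 wild-type (WT) libraries and 3 libraries labelled AMPKCA (AMPK-CA here), that is, with constitutively active AMP-activated protein kinase. All 6 libraries, WT included, came from livers after 14 days of high-fat diet with doxycycline, and the labels put 1 WT and 1 AMPK-CA library in each of batches 1, 2 and 3. The age and sex of the mice, the allele and the promoter driving the active kinase, and whether animals were pooled are not given in the sources used here. A ChIP-seq table gives no value for the kinase itself, so the genotype labels were not checked. In bulk liver, fewer bound cells and less binding per cell cannot be told apart.

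HNF4a is a nuclear receptor that binds DNA as a homodimer and drives the genes that define hepatocytes, among them those for plasma proteins, apolipoproteins, drug-metabolising enzymes and amino acid breakdown. AMPK is a kinase that senses low cellular energy and restrains lipid and glucose synthesis in liver. The end of a gene is where transcripts are cleaved and polyadenylated and the polymerase is released. In gene-dense stretches the end of one gene can lie next to the promoter of the following one, so a factor bound at a gene end may sit at a neighbour's promoter.

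That arrangement is visible in the sequence. Of the 653 regions, 73 overlapped a RefSeq promoter window (250 bases before to 50 after a gene start, GRCm38.p6), and in 63 of the 73 the window was that of the assigned gene. In 0 of them was it the window of the gene whose end was annotated. Both counts largely follow from the choice of regions at gene ends and from assignment to the nearest TSS. The 3 stretches printed here each lie past the end of 1 gene and in the promoter of its neighbour. Other regions hold such stretches too, and these 3 come from regions named below for high signal (Lcat) or a small p (Ifrd2 and Pbx2). The stretches run 5′ to 3′ on the strand of the neighbour and stop 1 base before its start. They lie outside every RefSeq gene span, with any CAAAG (on either strand) in capitals. CAAAG is the core shared by many HNF4 sites. The first, chr8:105943403-105943589 on the minus strand, lies past the end of Slc12a4, a potassium-chloride cotransporter, and before Lcat, the plasma enzyme that esterifies cholesterol on lipoproteins. The second, chr9:107587468-107587717 on the plus strand, lies past the end of the hyaluronidase gene Hyal3 and before Ifrd2. The third, chr17:34592009-34592258 on the plus strand, lies past the end of Gpsm3, a regulator of G-protein signalling, and before Pbx2, a homeodomain transcription factor. Each stretch is part of a longer region: 187 of 1729 bp for Lcat, 250 of 1114 for Ifrd2 and 250 of 1407 for Pbx2. The deposited distances put these regions 506, 294 and 108 bp past the assigned start sites. Signal is given per region, so it cannot be placed within a stretch.
Lcat: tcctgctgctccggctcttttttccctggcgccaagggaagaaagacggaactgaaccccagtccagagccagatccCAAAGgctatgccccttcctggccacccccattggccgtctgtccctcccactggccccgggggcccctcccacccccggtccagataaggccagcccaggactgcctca
Ifrd2: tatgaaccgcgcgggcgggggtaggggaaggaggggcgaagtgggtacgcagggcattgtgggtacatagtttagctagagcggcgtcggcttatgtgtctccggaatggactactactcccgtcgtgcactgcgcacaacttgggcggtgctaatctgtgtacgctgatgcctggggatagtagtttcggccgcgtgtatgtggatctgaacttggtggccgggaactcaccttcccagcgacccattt
Pbx2: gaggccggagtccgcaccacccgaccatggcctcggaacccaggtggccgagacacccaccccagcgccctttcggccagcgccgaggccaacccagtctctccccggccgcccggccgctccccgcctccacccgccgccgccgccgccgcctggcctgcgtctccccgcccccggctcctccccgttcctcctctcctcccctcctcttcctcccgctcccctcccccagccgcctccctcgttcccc

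The Lcat stretch held CAAAG at 1 place, and the Ifrd2 and Pbx2 stretches held it at 0. Of the 78 RefSeq promoter windows under gene-end regions, 40 (51.3%) held CAAAG, against 54.0% of all 32817 windows. The longer HNF4 letters CAAAGTCCA were in 1 of the 78 (1.28%, against 0.475% of all windows), and CAAAGTNCA, which includes it, in 2 (2.56%, against 1.41%). The direct repeat of AGGTCA with 1 base between the copies was in 0 of the 78 and in 0.0396% of all windows. All 4 were searched on both strands and CAAAG lies within the 2 longer HNF4 forms. These are matches of letters in promoter windows only, and the rest of each region was not searched.

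The annotation class that chose the regions is itself defined by position at a gene end, so the following positions are a description of the choice. For 518 regions the strand and end of the annotated gene were known from RefSeq, and the centre of the region lay a median of 475 bp past that end, with quartiles of 184.5 and 771 bp. The centre lay past the end in 440 and before it in 78. In 465 it fell between 100 bp before and 1 kb after the RefSeq end, and 53 lay farther away. Whether those 53 lie at the end of another transcript of the gene was not looked up. The region itself covered the RefSeq end in 119. By the RefSeq biotype of the annotated gene, 594 regions lay at protein-coding genes and 46 at long non-coding RNA genes.

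**Figure D1:**
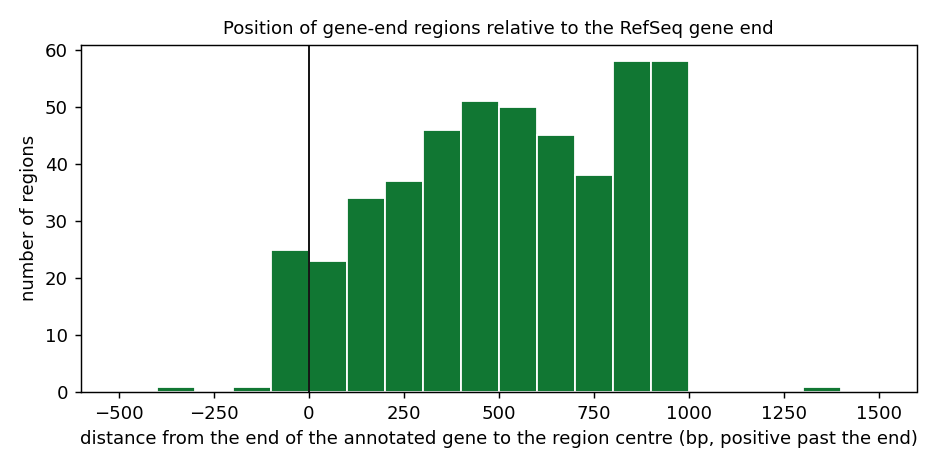
Histogram of the distance (bp, 100 bp per bar) from the RefSeq end of the annotated gene to the region centre, positive past the end, for 468 of the 518 gene-end regions with known strand (50 lie outside the axis). Of all 518, 465 lie between 100 bp before and 1 kb after the end, a distribution that the annotation class used to choose them sets.

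The gene named at the end and the assigned gene were the same in 274 regions (42.0%) and different in 379. The assigned start site lay a median of 5263 bp away, from 101 to 204252 bp. In 121 regions it was within 1 kb, and 117 of these were assigned to another gene than the one ending there. In 312 it was 1 to 10 kb away, with 160 assigned to another gene, and in 220 it was more than 10 kb away, with 102 assigned to another gene. Among the other-gene regions whose strands were both known, 167 of 254 pairs of genes ran in the same direction, and within 1 kb of the start site 67 of 74 did. Regions past the end of 1 gene and near the start of another are chosen by position, so these shares describe that choice too. The centre of the region lay inside another gene in 247 of the 653 (37.8%). The regions carried 642 annotated and 625 assigned genes. They were most numerous on chromosome 7, with 58, and least on chromosomes 18 and X, with 8 each.

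Signal is the authors' normalized read number per region. The 6 libraries held 536027 to 1622087 reads in all regions, of which gene-end regions took between 1.65% and 1.85%. The median gene-end region had 10 to 32 reads per library. A count of 10 has an exact 95% Poisson interval of 4.80 to 18.4 reads and a count of 32 one of 21.9 to 45.2, which cover counting error only. Over the 653 regions the WT library of batch 1 stood apart from the 4 libraries of the other batches, with Pearson correlations of log2 signal of 0.498 to 0.610 against them, while it reached 0.789 with the AMPK-CA library of its own batch. The other 10 pairs of libraries had 0.715 to 0.849. The same library had 19.4% of its reads in promoter regions, the AMPK-CA library of batch 1 had 14.2% and the other 4 had 11.7% to 13.4%. Summaries over groups of regions are therefore also given without batch 1.

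In their medians, gene-end regions were of ordinary strength and length for this table. Their mean signal over the 6 libraries ran from 6.51 to 256 normalized reads, with a median of 17.3 (all regions 17.4) and quartiles of 11.5 and 30.4. Of the 653, 70 had a mean over 50 and 19 had one of 100 or more, and 14 were among the strongest 1% of the whole table. They were 201 to 3010 bp long, with a median of 559 bp, against 545 bp for all regions and 672 bp for promoter regions. Per kb of region the median signal was 33.1 normalized reads at gene ends, between 28.8 at promoters and 34.5 in introns, and intergenic regions had 36.2. Values per kb at gene ends ran from 12.6 to 175.

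The strongest gene-end regions had much the same signal in both genotypes. The highest of all was at the end of Tmem50a, a membrane protein gene, at chr4:134896775-134898238, and ranked 9th of the 39704 regions. Its signal in batches 1, 2 and 3 was 277, 251 and 192 normalized reads in WT and 287, 247 and 281 in AMPK-CA. The genotypes overlapped, with means of 240 ± 43.6 and 272 ± 21.1 (SD, n = 3 each) and a log2 fold change (AMPK-CA over WT, within batch) of 0.19 ± 0.17 (SE, limma adjusted p = 0.843). The second strongest lay at chr10:127660691-127663109, past the end of Stat6, the transcription factor of interleukin-4 signalling, and inside Nab2, a corepressor of EGR factors to which it was assigned. It gave 241, 141 and 147 in WT and 179, 184 and 168 in AMPK-CA, so the WT value of batch 1 stood above the other 5. The third, at chr2:73616394-73617350, ends the non-coding gene Chn1os3. It gave 156, 156 and 162 in WT and 155, 163 and 175 in AMPK-CA, the narrowest spread among the 8 strongest.

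The next 3 strongest regions were assigned to genes of hepatocyte function. The region at chr10:76569839-76570931 lay past the end of Spatc1l, with its centre inside another gene, and overlapped the RefSeq promoter window of Gm15343. It was assigned to Ftcd, an enzyme of histidine breakdown, whose start site was 1 to 10 kb away. The signal there was 200, 148 and 126 in WT and 129, 167 and 167 in AMPK-CA. At chr17:34861671-34862884, at the end of the complement gene C2 and over the start of its neighbour Cfb, also of complement, it was 170, 174 and 135 in WT and 118, 151 and 139 in AMPK-CA. The region that holds the printed Lcat stretch, chr8:105942032-105943760, gave 177, 136 and 126 in WT and 123, 148 and 139 in AMPK-CA. In all 3 the genotypes overlapped, and AMPK-CA was the lower one in batch 1 in each. Their log2 fold changes were -0.020, -0.23 and -0.083, with limma adjusted p of 0.990, 0.840 and 0.952, and without batch 1 they were 0.28, -0.080 and 0.14. The remaining pair of the 8 strongest were at the end of Nop16, a nucleolar protein of ribosome assembly, where WT averaged 131 ± 30.1 and AMPK-CA 137 ± 21.2, and at the end of the DNA repair gene Xrcc1 assigned to Ethe1, a mitochondrial sulfide-oxidising enzyme, where they averaged 131 ± 26.9 and 131 ± 18.5 (SD, n = 3).

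**Figure D2:**
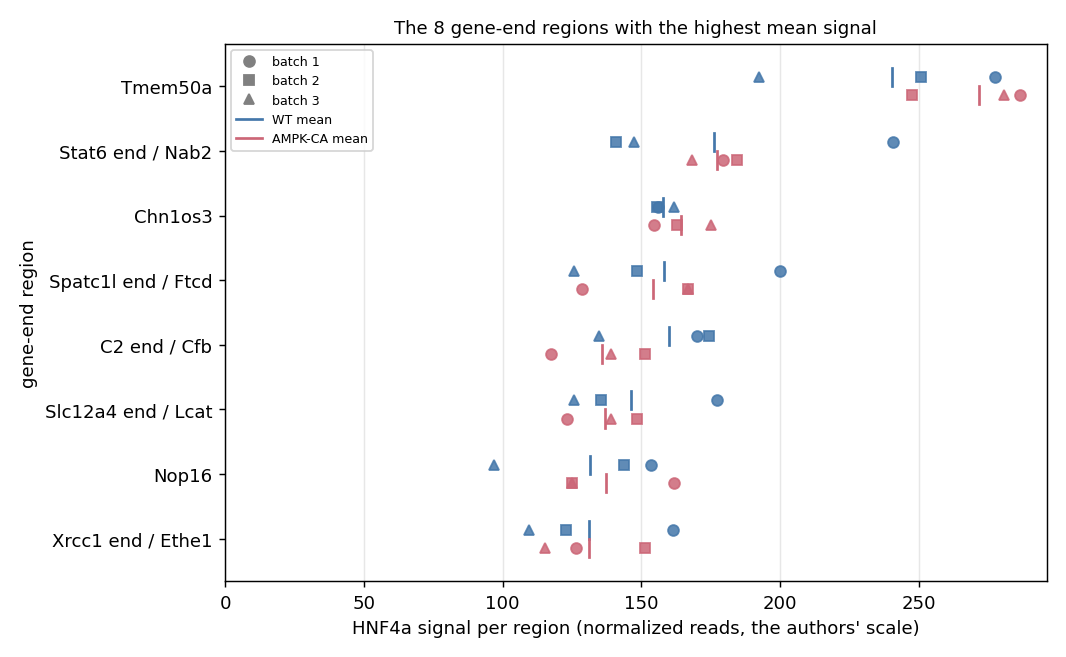
HNF4a signal (normalized reads, the authors' scale) of the strongest gene-end regions, with 1 point per library, shape for batch and colour for genotype. In each of them the WT and AMPK-CA points overlap, and the Tmem50a region, at 192 to 287, lies highest.

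Whether active AMPK went with a difference in HNF4a signal was asked of every region with limma on log2(signal + 1.80), with genotype within batch. At adjusted p under 0.05, 0 of the 653 gene-end regions were called (smallest limma adjusted p = 0.422), against 18 higher (0.0453%) and 5 lower (0.0126%) of all 39704, together 0.0579%. The count at gene ends was 0 also with edgeR, which called 24 of all regions (0.0604%), and with DESeq2, which called 1 (0.00252%). At unadjusted p under 0.05 there were 18 higher and 17 lower gene-end regions in limma, against a background of 4.11% higher and 3.16% lower. These 35 are 5.36% of the members, below the 7.27% of all regions. At the same unadjusted level edgeR gave 29, where 6.54% of all regions passed, and DESeq2 12, where 1.95% passed, and limma without the batch block gave 15, where 2.46% of all regions passed.

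The direction over batches was compared with the whole table. All 3 batches gave a higher AMPK-CA value in 79 gene-end regions (12.1%, background 13.5%) and a lower one in 108 (16.5%, background 14.6%). All 3 AMPK-CA values lay above all 3 WT values in 29 (4.44%, background 4.64%) and below them in 32 (4.90%, background 3.27%). Over batches 2 and 3 alone, both were higher in 182 (27.9%, all regions 25.5%) and lower in 169 (25.9%, all regions 26.6%). The fitted log2 fold change was positive in 297 and negative in 356 (54.5% negative, against 49.4% of all regions), with 10th and 90th percentiles of -0.57 and 0.57. Without batch 1, it was positive in 328 and negative in 325 (49.8% negative, against 50.7%). The extremes were -1.24 at the end of Aldoc, a glycolytic aldolase, assigned to Pigs, and 1.64 at Bricd5, both regions of weak signal that were named after their values were seen.

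**Figure D3:**
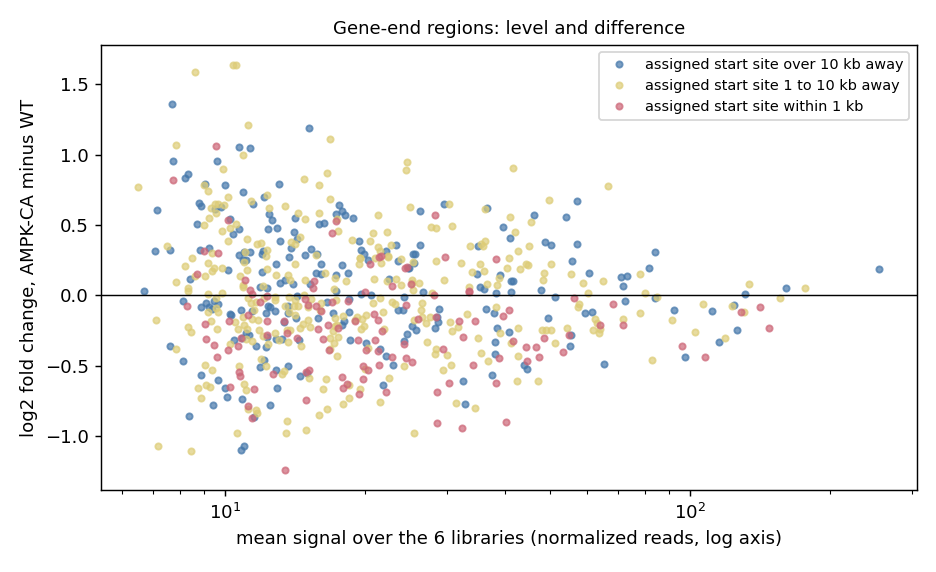
Log2 fold change (AMPK-CA minus WT, vertical) against mean signal over 6 libraries (log axis) for the 653 gene-end regions, coloured by distance to the assigned start site. The spread narrows as signal rises, and of the regions within 1 kb of the start site 94 of 121 lie below 0.

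Although 0 regions were called, the 5 regions with the smallest p in each direction are given with all their values, from among those with 1 direction in all batches and signal at or above the median. Of the higher ones, the first lay at chr4:129110306-129111158, past the end of Hpca, a neuronal calcium sensor, and inside Tmem54. Its signal was 69.4, 43.4 and 35.9 in WT and 83.7, 71.8 and 95.8 in AMPK-CA, so the genotypes did not overlap. The log2 fold change was 0.78 ± 0.26 (SE, limma adjusted p = 0.422), that is, means of 49.6 ± 17.5 and 83.8 ± 12 (SD, n = 3). At chr2:167642192-167642907, at the end of Tmem189 and assigned to Ube2v1, a cofactor of ubiquitin chain formation, it was 39.4, 49.4 and 41.3 in WT and 61.2, 87.3 and 63.9 in AMPK-CA. Here too the genotypes did not overlap, with 0.67 ± 0.27 (SE, limma adjusted p = 0.560). The region past the complement gene C3, at chr17:57203663-57204100 and assigned to the cytokine gene Tnfsf14, gave 9.34, 17.2 and 23.4 in WT and 37.0, 36.9 and 23.6 in AMPK-CA. In batch 3 its values were nearly equal, and its log2 fold change was 0.95 ± 0.37 (limma adjusted p = 0.541).

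A pair of neighbouring regions at the end of D930015M05Rik was assigned to Cry2, a cryptochrome that represses the circadian clock. The first, chr2:92432244-92432682, gave 12, 50.2 and 30.6 in WT and 38.6, 59.2 and 59.7 in AMPK-CA. AMPK-CA was higher in each batch but the genotypes overlapped, and the log2 fold change was 0.90 ± 0.31 (limma adjusted p = 0.436). The second began 51 bp farther on, was much weaker, and gave 1.07 ± 0.61 (SE, limma adjusted p = 0.726). The region past the phosphatase gene Ppp5c, at chr7:17003511-17004169 and assigned to Ccdc8, gave 14.0, 19.5 and 16.2 in WT and 36.2, 37.8 and 23.6 in AMPK-CA without overlap (log2 fold change 0.89 ± 0.37, limma adjusted p = 0.568).

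Among the lower ones were the regions whose promoter stretches are printed above for Ifrd2 and Pbx2, where each stretch is only part of its region. The region at the Hyal3 end and Ifrd2 promoter, chr9:107587455-107588568, gave 55.4, 41.9 and 61.1 in WT and 33.8, 22.3 and 26.4 in AMPK-CA. All WT values were above all AMPK-CA values, the AMPK-CA mean was 52.1% of the WT mean, and the log2 fold change was -0.90 ± 0.31 (SE, limma adjusted p = 0.436). The region at the Gpsm3 end and Pbx2 promoter, chr17:34591876-34593282, gave 62.7, 22.5 and 43.1 in WT and 30.6, 9.70 and 25 in AMPK-CA. Each batch was lower in AMPK-CA by a like amount although the genotypes overlapped across batches, and the log2 fold change was -0.94 ± 0.34 (SE, limma adjusted p = 0.478). At the end of Slc10a3, chrX:74367996-74368892, over the promoter of Ubl4a, a chaperone-complex member for tail-anchored membrane proteins, the signal was 52.0, 34.4 and 27.0 in WT and 26.6, 17.5 and 13.9 in AMPK-CA. The 3 within-batch differences were the most alike of the 10 regions, at -0.92, -0.91 and -0.87 on the log2 scale, with a limma adjusted p of 0.536.

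The other lower regions were a neighbouring pair at Enho, which encodes adropin, a peptide hormone made in liver. The first lay at chr4:41636866-41637971 and the second, past the end of the dynein gene Dnaic1, at chr4:41638208-41639270, 236 bp farther on. The first gave 49.4, 27.7 and 27.0 in WT and 20.1, 16.5 and 12.5 in AMPK-CA, and the second 56.7, 44.2 and 32.4 in WT and 24.9, 19.4 and 29.2 in AMPK-CA. In both, all AMPK-CA values were below all WT values in the same 6 libraries, with AMPK-CA means at 47.2% and 55.2% of WT. The log2 fold changes were -0.97 ± 0.37 and -0.80 ± 0.33, with limma adjusted p of 0.503 and 0.560. The pair shares its assigned gene.

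**Figure D4:**
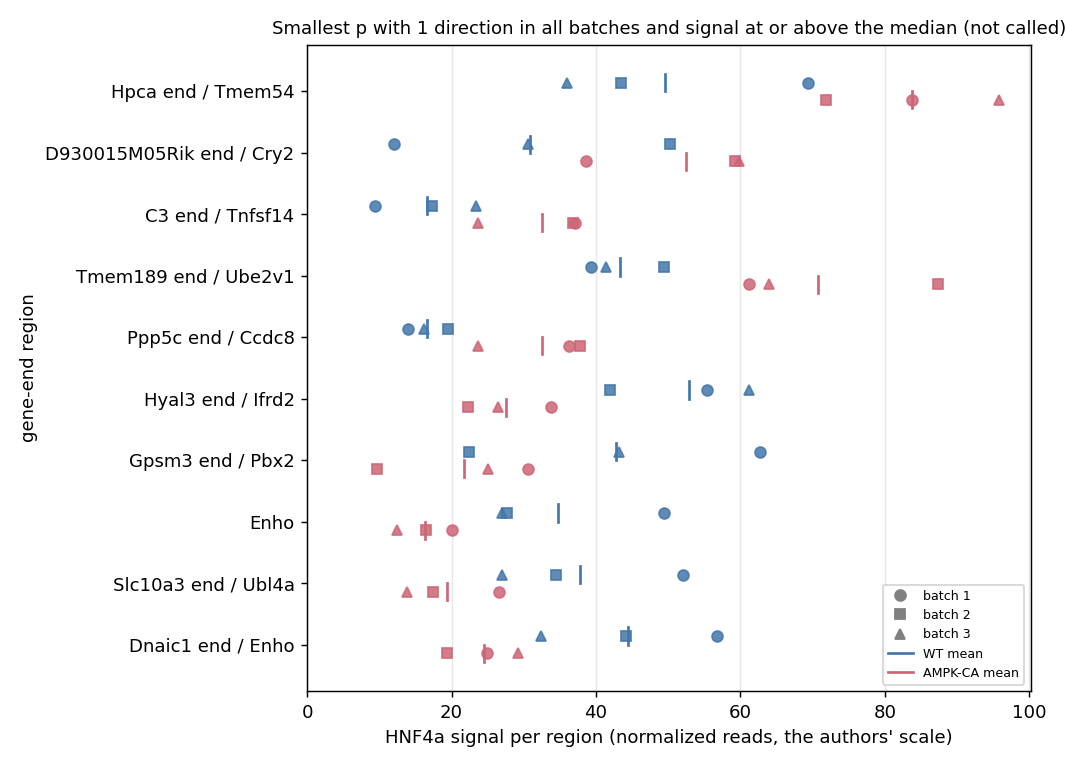
HNF4a signal (normalized reads, the authors' scale) in the 5 gene-end regions with the smallest p in each direction among those with 1 direction in all batches and signal at or above the members' median, with 1 point per library, shape for batch, colour for genotype and a line at each mean. The WT and AMPK-CA points overlap in the Cry2 and Pbx2 regions and not in the others, which the choice by p largely sets (over all regions 4.64% higher and 3.27% lower did not overlap), and 0 of the 10 passed adjustment over all regions.

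Neighbouring gene-end regions shared the sign of their fold change in some pairs and not in others. There were 19 pairs with a gap of up to 2 kb, made of 36 regions, and the fold changes had the same sign in 8 pairs and opposite signs in 11. Some of these fold changes were small, such as -0.016 at Apoc3, so their signs are uncertain. An example of opposite signs lay past Foxa3, which encodes a forkhead factor that opens liver chromatin, where 2 regions were both assigned to Irf2bp1. The region at chr7:19012096-19012632 gave 24.7, 15 and 16.2 in WT and 9.66, 8.73 and 6.95 in AMPK-CA, without overlap and with a log2 fold change of -0.97 ± 0.44 (SE, limma adjusted p = 0.646). The one 78 bp farther on, chr7:19012711-19013498, gave 40.7, 29.2 and 19.8 in WT and 43.5, 34.0 and 26.4 in AMPK-CA, with 0.23 ± 0.33. Another region assigned to Irf2bp1, at its own end, had means of 20.7 ± 10.4 and 21.1 ± 2.24.

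Gnmt, the liver enzyme that uses up S-adenosylmethionine by methylating glycine, was the other gene with 3 gene-end regions. The strong one at the end of Cnpy3, chr17:46735107-46736142, gave 151, 138 and 108 in WT and 103, 116 and 98.6 in AMPK-CA, lower in each batch with overlap (-0.30 ± 0.21, limma adjusted p = 0.787). The one past Pex6, a peroxisome import factor, chr17:46725777-46726601, gave 34.0, 21.7 and 27.0 in WT and 18.5, 15.5 and 12.5 in AMPK-CA, without overlap (-0.76 ± 0.38, limma adjusted p = 0.683). The one at the end of Gnmt itself, chr17:46724247-46725216, gave 38.7, 12 and 5.39 in WT and 16.1, 8.73 and 15.3 in AMPK-CA, with no common direction. At the Apoa1 and Apoc3 ends, genes of major lipoprotein proteins, 4 regions lay within chr9:46230077-46233360, with WT means of 20.3, 12.4, 21.5 and 10.9 and AMPK-CA means of 18.2, 9.55, 21.6 and 13.6 in order of position. The genotypes overlapped in all 4, which were picked for their closeness after the values were seen.

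The distance to the assigned start site divided the gene-end regions. Of the 121 within 1 kb of a start site, 94 had a negative fold change and 27 a positive one, and the median over regions was -0.24 on the log2 scale. Of the 312 at 1 to 10 kb, 162 were negative, with a median of -0.019, and of the 220 beyond 10 kb, 100 were negative, with a median of 0.052. At unadjusted p under 0.05 there were 5 lower and 0 higher regions within 1 kb, 10 lower and 12 higher at 1 to 10 kb, and 2 lower and 6 higher beyond, where the whole table had 3.16% lower and 4.11% higher. Those 5 are 4.13% of the near regions, and without batch 1 there were 5 lower and 3 higher of the 121 (3.24% lower and 3.6% higher of all regions). All 3 batches were lower in 33 of the 121 near regions (27.3%) and higher in 0, against 14.6% and 13.5% of all regions and 25.3% and 3.53% of promoter regions. Exon regions had 22.5% lower and 5.67% higher. Over batches 2 and 3 alone, both were lower in 36 (29.8%) and higher in 22 (18.2%), so the absence of higher regions rests on batch 1.

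Most of that difference was in batch 1. Within 1 kb of a start site, the median difference per region was -0.57, 0.0016 and -0.20 on the log2 scale in batches 1, 2 and 3, and 95%, 49.6% and 62.0% of the regions were lower in AMPK-CA. Without batch 1 the median was -0.12, with 58.7% of the regions negative. Regions that the table annotates as promoters showed the like, with -0.60, -0.059 and -0.085, and -0.069 without batch 1. So did exon regions, with -0.57, -0.018 and -0.022, and -0.026 without batch 1. Beyond 10 kb the medians were 0.16, -0.0091 and 0.069, and intergenic regions had 0.24, -0.032 and 0.032. The WT library of batch 1, with 19.4% of its reads in promoters, moves with this split, and its part in the result was not tested. The classes themselves were compared without a test.

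**Figure D5:**
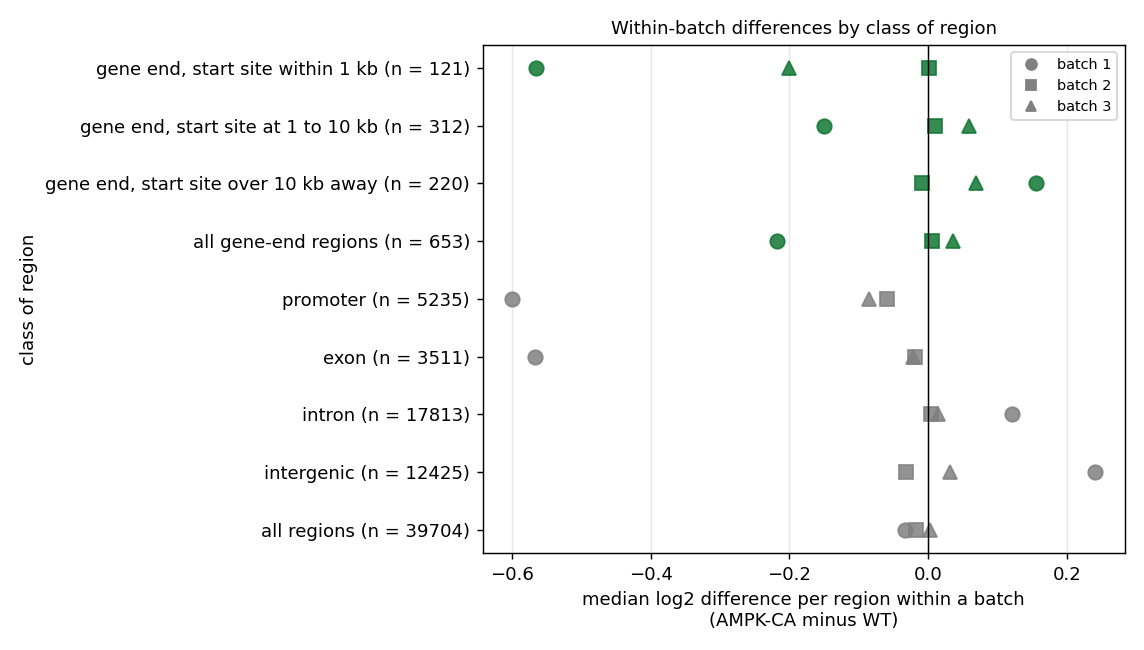
Median log2 difference per region (AMPK-CA minus WT) within each of 3 batches, for gene-end regions by distance to the assigned start site (green) and for other classes of region (grey). The batch 1 points spread from -0.60 for promoters to 0.24 for intergenic regions, while the points of batches 2 and 3 lie between -0.20 and 0.069.

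Agreement of the annotated and assigned gene followed the same division. Where the genes were the same, the fold change was positive in 144 and negative in 130, and the median differences per region were 0.015, 0.010 and 0.075 in batches 1, 2 and 3. Where they differed, 153 were positive and 226 negative, with -0.33, -0.0024 and -0.044. Leaving out regions within 1 kb of a start site, the other-gene regions had 129 positive and 133 negative values. Over all 653 regions the medians were -0.22, 0.0056 and 0.036 in the 3 batches, and -0.034, -0.017 and 0.0024 over all 39704. Taken instead as the difference of the library medians, gene-end regions had -0.13 on the log2 scale (WT 4.34 ± 0.17 and AMPK-CA 4.21 ± 0.016, SD, n = 3), against -0.015 for all regions. Library medians move in steps of whole reads at these depths, so the differences per region resolve them more finely.

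Lists of genes of hepatocyte function, and of growth, translation and other liver cells, were examined by annotated or assigned gene, with 0 regions called in any of the 13 lists. Plasma protein, coagulation and complement genes had 23 gene-end regions at 19 of 106 genes, and 98 of the 106 had a region of some class. Of the 23, 14 were positive and 9 negative with a median log2 fold change of 0.18, against 0.0058 over all regions, and 3 were higher and 0 lower at unadjusted p under 0.05 (all regions 4.11% and 3.16%). Those 3 were the C3 region described above, Angptl4, an inhibitor of lipoprotein lipase, and the acute phase gene Orm2. Angptl4 gave 22.7, 73.4 and 25.2 in WT and 48.3, 85.4 and 44.5 in AMPK-CA, with overlap (0.68 ± 0.29, limma adjusted p = 0.602). The Orm2 region, past the end of Akna, gave 6, 10.5 and 0 in WT and 14.5, 18.4 and 13.9 in AMPK-CA, without overlap but from few reads (1.64 ± 0.56, limma adjusted p = 0.436). Without batch 1 the list had 13 positive and 10 negative values and a median of 0.22.

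Amino acid and urea metabolism had 10 regions, of which 1 was positive and 9 negative, with a median of -0.23. Without batch 1 it had 4 positive and 6 negative, with -0.10. The region past Pex6 was the 1 at unadjusted p under 0.05, and the 1 positive region lay at the end of Pknox1 and was assigned to Cbs, the enzyme that makes cystathionine from homocysteine. Liver transcription factors had 7 regions (54 of the 55 genes had a region of some class), 2 positive and 5 negative, with a median of -0.25 and, without batch 1, -0.10. The strongest, at chr11:100885340-100887108, was the region past Stat3, an acute phase factor, and was assigned to Stat5a. It gave 190, 109 and 95.3 in WT and 109, 87.3 and 103 in AMPK-CA. Its WT value of batch 1 stood above the rest and the genotypes overlapped.

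Lipoprotein and lipid genes had 13 regions, 6 positive and 7 negative, with a median of -0.016 (7 and 6 without batch 1, median 0.0056), led by the Lcat region. Cholesterol and bile acid genes had 7, 2 positive and 5 negative, with a median of -0.18 (3 and 4 without batch 1, median -0.29). The strongest of them ends Dhcr7, the last enzyme of cholesterol synthesis, at chr7:143848607-143849297, and gave 56.7, 44.9 and 55.7 in WT and 49.9, 30.1 and 30.6 in AMPK-CA, lower in each batch with overlap (-0.52 ± 0.30, limma adjusted p = 0.724). Cytochrome P450 and drug metabolism genes had 7, 5 positive and 2 negative, with a median of 0.41 and, without batch 1, 0.34. Their strongest, at the end of Cyp2c44 and assigned to Cpn1, is also counted in the plasma protein list. It gave 40.0, 45.7 and 21.6 in WT and 53.9, 38.8 and 45.8 in AMPK-CA, and the genotypes overlapped. Glucose and glycogen genes had 4 regions, 2 positive and 2 negative with a median of 0.26, and without batch 1 all 4 were positive with 0.25. Of these the region at the end of Pck1, the gluconeogenic enzyme, chosen after its values were seen, gave 5.34, 11.2 and 8.99 in WT and 13.7, 16.5 and 12.5 in AMPK-CA without overlap (0.67 ± 0.47, limma adjusted p = 0.786).

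Genes of AMPK, mTOR and insulin signalling had 6 regions, 3 positive and 3 negative, with a median of -0.13 and, without batch 1, 0.035. The strongest ends Sesn2, a sestrin that links stress to AMPK and mTOR complex 1, at chr4:132491745-132492670. It gave 84.7, 54.7 and 44.9 in WT and 58.8, 53.4 and 36.1 in AMPK-CA, lower in each batch with overlap (-0.28 ± 0.28, limma adjusted p = 0.864). Ribosomal protein and translation genes had 8 regions with 5 positive (6 without batch 1), of which the strongest, at the end of the elongation factor gene Eef1d and assigned to the NAD synthesis gene Naprt, gave 203, 120 and 89.9 in WT and 114, 124 and 121 in AMPK-CA. Fatty acid oxidation and mitochondrial respiration had 4 regions each, with 2 positive and 2 negative in both and medians of 0.045 and -0.052. Without batch 1 the former had 2 and 2 with a median of 0.33, and the latter had 1 positive and 3 negative with -0.20. Their strongest, past Cldnd2 at the promoter of Etfb (an electron carrier subunit of fatty acid oxidation) and at the end of the complex I gene Ndufa12, had log2 fold changes of -0.18 ± 0.32 and 0.14 ± 0.31. Cell cycle genes had 2 regions, 1 positive and 1 negative with and without batch 1. The stronger, at the end of Cdc20 and assigned to Elovl1, had 0.45 ± 0.30. The strongest glucose region, past the glycolytic gene Tpi1 and assigned to Spsb2, had -0.38 ± 0.34.

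Of the list members at unadjusted p under 0.05, 3 have not yet been described, and they were named after their values were seen. The region past Setd1a near the start of Hsd3b7, an enzyme of bile acid synthesis, gave 50.03, 44.9 and 41.3 in WT and 37.8, 15.5 and 40.3 in AMPK-CA. All AMPK-CA values were below all WT values, most of all in batch 2, with a log2 fold change of -0.62 ± 0.31 (SE, limma adjusted p = 0.683). The region past Nob1 assigned to Nqo1, a quinone reductase of the oxidative stress response, gave 8.67, 4.49 and 7.19 in WT and 12.9, 15.5 and 16.7 in AMPK-CA. The one past Pgd, an enzyme of the pentose phosphate pathway, was assigned to Apitd1 and gave 4, 8.24 and 7.19 in WT and 15.3, 15.5 and 13.9 in AMPK-CA. Both were weak regions without overlap of the genotypes, with log2 fold changes of 1.00 ± 0.49 and 1.05 ± 0.49 and limma adjusted p of 0.673 and 0.659.

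Markers of other liver cells had 1 gene-end region among 49 genes, and 20 of the 49 had a region of some class. It lies at the end of Cd79a, a B-cell receptor gene, by the promoter of Arhgef1, and gave 19.3, 3.74 and 1.80 in WT and 13.7, 0 and 11.1 in AMPK-CA. Its values are among the lowest of the 653 and the genotypes overlapped. Of the lipoprotein and lipid genes, 69 of 69 had a region of some class.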

How the data were processed

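ChIP-seq reads were processed by the submitters. The submitters' processing notes name BWA, deepTools, FastQC, HOMER, MACS2, Picard, SAMtools, SICER and Trim Galore without saying what each did, and the builds GRCm38 and mm10. The selection of regions is not described in the sources used here. The deposited signal, made by the authors, is a read number per region divided by 1 factor per library and not by region length, so a change shared by all regions cannot be measured. In each library 100% of values were whole multiples (within 1e-09) of the value of 1 read. Depth outside the regions is unknown. The pooled input was not analysed here.

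The main test was limma 3.58.1 (R 4.3.3) with its trend and robust options on log2(signal + 1.80), where 1.80 is 0.1 times the median of the non-zero values, over all 39704 regions with genotype and batch, and Benjamini-Hochberg adjustment at 0.05. Fold changes on that scale understate those of weak regions. Counting tests used edgeR 4.0.16 and DESeq2 1.42.0 on the recovered reads. Batches are those in the labels, which pair 1 library of each genotype. Deviations from the group means of the paired libraries correlated at 0.527, 0.490 and 0.046 in batches 1, 2 and 3 over all regions. Nothing in the labels says more of the replicates than separate animal codes, so p-values measure the spread between these libraries.

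The regions, the gene lists and the tests were chosen with earlier results of these data known. The values named were, by rule, the 8 strongest members, the 5 smallest p in each direction with 1 sign in 3 batches and signal at or above the median, the strongest member of each list, the 3 strongest assigned to another gene, and genes with 3 members. The fits were tested on simulated reads in which some regions at or above the median signal were changed by a fixed, large fold. That test does not measure how often smaller changes, or changes in weaker regions, would be found. It did not model the high promoter share of the WT library of batch 1. Gene ends, strands, biotypes and promoter sequences are RefSeq's (GRCm38.p6, the assembly of mm10), and 650 of the annotated genes' regions matched by symbol. A motif search in the 300 bases about each region centre was planned but not run, since no genome was used here, and RefSeq promoter windows were searched in its place. Gene ends counted here can belong to any transcript of a gene.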

Additional observations from a re-analysis of the deposited data

How the results depend on the processing

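The count of called gene-end regions was 0 in each of 10 alternatives (no batch block, a pseudocount 0.5 times the median, limma without trend, equal library totals, edgeR, DESeq2, weak regions left out, and each batch left out). The fit without the replicate block gave 0 called gene-end regions too, with 15 at unadjusted p under 0.05. The count over all regions, 23, became 0 without the replicate block, 0 for limma without trend, 1 with DESeq2, and 2 to 12 with a batch left out; the cause was not tested. The 10 regions with the smallest p were chosen for the same direction in every batch. Leaving out a batch could therefore not reverse their sign, so for them those alternatives test nothing about direction. Of the 34 named regions, 22 kept their sign in all the alternatives that gave a value, these 10 among them. The smallest adjusted p of a named region was 0.135. The log2 fold changes of the other 12, with each batch left out in turn, ran from -1.04 to 0.70 at the Cd79a end, -0.081 to 0.82 at the Cdc20 end, -0.38 to 0.24 at the Eef1d end, -0.78 to 0.43 at the Gnmt end, -0.15 to 0.53 at the Irf2bp1 end, -0.095 to 0.35 at the Ndufa12 end, -0.061 to 0.22 at the Nop16 end, -0.20 to 0.14 at the Slc12a4 end (Lcat), -0.23 to 0.28 at the Spatc1l end (Ftcd), -0.12 to 0.29 at the Stat6 end (Nab2), -0.75 to 0.044 at the Tpi1 end and -0.14 to 0.18 at the Xrcc1 end (Ethe1). Equal totals turned the Spatc1l end (0.038), the larger pseudocount the Cd79a end (0.025) and DESeq2 the Xrcc1 end (-0.026). Of those that kept their sign, the C2 end ran from -0.36 to -0.080, the Stat3 end from -0.55 to -0.10, the Tmem50a end from 0.013 to 0.29, the Cyp2c44 end from 0.094 to 0.72 and the C3 end from 0.52 to 1.41. The difference of library medians for same-gene regions, -0.11, became 0.024 as the median of differences per region, an alternative chosen after seeing the data. With 10 to 32 reads in the median gene-end region, counting error was wide, and the smallest difference detectable in a single region was not measured.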
